A study of Mus musculus with 75 samples.

Results

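Glia of the colonic myenteric plexus were compared 2 h after lipopolysaccharide (LPS) or saline, in 4 LPS libraries and 4 PBS libraries out of 75 RNA-seq libraries in all. The 8 libraries were chosen by their labels alone (region, layer, treatment and time), and no measured value entered the choice. The study profiled cells labelled EGC (enteric glial cells) of adult reporter mice in untreated gut, 2 h after injection, and 24 h after injection with or without the receptor gene Gpr37. LPS from Escherichia coli, an endotoxin of the bacterial outer membrane, was given as a single intraperitoneal dose of 2 mg/kg in PBS (phosphate-buffered saline), and control mice got PBS without it. All 8 libraries came from mice of 1 reporter genotype in which green fluorescent protein marks glia, so control and treated mice carried the same allele. The column labels of all 8 begin with WT (wild type) and name no gene for it. Each group held 2 females and 2 males. An age beyond adult and a strain background are not given in the sources used here, and neither is the way in which the glia were isolated. The labels give no mouse identifier at this time, so the p-values below measure the spread between these libraries, which may in part be technical.

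LPS is bound by CD14 and MD-2 and is sensed by Toll-like receptor 4, whose adaptor MyD88 activates the transcription factor NF-kB and the MAP kinases. Within hours the first wave of targets includes chemokines, cytokines, immediate early transcription factors, and inhibitors of NF-kB itself that close a negative feedback loop. Enteric glia surround the neurons of the gut wall, share Sox10, S100b and Gfap with other peripheral and central glia, and are known to release cytokines and chemokines when the gut is inflamed.

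The libraries held between 2368306 and 5724367 counts in the LPS group and between 2794170 and 4273596 in the PBS group. Between 11748 and 14494 genes were detected per library, and mitochondrial genes took from 1.76% to 8.17% of the counts. The 12 pairs of replicates within the 2 groups gave chi-square values between 34.9 and 88.9 times their degrees of freedom, above counting error, and none were identical. In all 8 libraries sex-linked expression fitted the label. Levels are given as CPM (read counts relative to library size, scaled by TMM factors), and each value of a gene is given in the order of replicates 1 to 4.

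The glial label was checked against 8 glial markers. All 8 were detected, and their summed level lay between 3833 and 9527 CPM with LPS and between 3480 and 9839 CPM with PBS. The preparations also held RNA of other cells of the muscle wall. Summed over 6 markers, smooth muscle genes stood at 19345 to 59300 CPM with LPS and at 19382 to 72124 CPM with PBS, beside 7125 to 22940 CPM in the 5 untreated colon libraries. Fibroblast markers stood between 4242 and 10519 CPM in the 8 libraries, and macrophage markers between 394 and 3083 CPM. In bulk samples of this kind, fewer cells of a type and less RNA per cell cannot be told apart.

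Of 13107 genes tested, 102 (0.778%) changed at an adjusted p under 0.05 in the quasi-likelihood test of edgeR, with p-values adjusted by the Benjamini-Hochberg method over all genes. Of these, 97 (0.74%) were higher with LPS and 5 (0.0381%) were lower. The log2 fold changes of the 97 higher genes ran from 1.24 to 12.45 with a median of 3.14, and 53 of them rose more than 8-fold. The upper end belongs to Csf3, whose fitted value depends on the prior count because all PBS libraries were at 0. Over all tested genes the median log2 fold change was -0.0022, and 49.7% of the genes had a positive value. In 99 of the 102 genes the 4 LPS libraries did not overlap the 4 PBS libraries. Over all genes such a separation was seen upward in 295 genes (2.25%) and downward in 210 (1.6%). All 102 genes had the same direction in females and in males, which the lack of overlap already fixes for 99 of them. DESeq2 called 279 genes (2.13%), 215 higher and 64 lower, which included all 102. The 102 come from a fit in which 8 small-intestinal libraries share the estimate of the spread, and the 8 colon libraries alone gave 63 calls, or 41 with the replicate number as a block, all of them higher. The count fell to 66 without PBS replicate 1 and to 65 without PBS replicate 3, and 56 of the 102 genes kept their call whichever of the 8 colon libraries was left out.

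Secreted signals were among the largest changes. Of 16 tested cytokines and colony-stimulating factors 5 rose (Il6, Il1b, Il1a, Csf3 and Csf1) and none fell. Of 4 tested CXC chemokines that recruit neutrophils 3 rose (Cxcl1, Cxcl2 and Cxcl5), and of 16 other chemokines 5 rose (Ccl2, Ccl7, Ccl3, Ccl4 and Cxcl10). Over all tested genes 0.74% rose, and this share and the all-gene median of -0.0022 are the background of each list count at 2 h. The median log2 fold change was 1.87 over the tested cytokines, 7.78 over the neutrophil-recruiting chemokines and 1.05 over the other chemokines. With genes absent from all PBS libraries set at their lower bound these medians were the same. The 3 lists held 22, 6 and 21 genes and were chosen with earlier results of these data known. Members that were not tested are left out. A gene near 0 with PBS can pass the count filter through its LPS libraries, so the medians and shares may in part reflect the filter.

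Il6 encodes interleukin 6, the cytokine that drives the acute-phase response. It lies on chromosome 5 (30013114 to 30019975, GRCm38.p6). Its level was 271, 382, 332 and 397 CPM in the LPS libraries and 0, 1.02, 0 and 0 CPM in the PBS libraries. The groups stood apart. The PBS libraries held 3 Il6 counts in all, and the ratio of means was 1356 with a 95% interval of 464 to 6576 from the exact Poisson limits of those 3 counts, which cover counting error only. The log2 fold change was 10.50 ± 0.91 (adjusted p = 1.43e-05, edgeR). All 3 counts were in PBS replicate 2, and without it the fitted value was 13.75. In the 5 untreated colon libraries Il6 ranged from 0 to 0.98 CPM.

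The chemokine Cxcl2 attracts neutrophils through the receptor CXCR2. It stood at 148, 282, 231 and 411 CPM with LPS and at 1.63, 2.72, 0 and 0 CPM with PBS. Its neighbour Cxcl1, which acts on the same receptor, stood at 1062, 970, 2127 and 1432 CPM against 6.06, 7.13, 0 and 14.9 CPM. The groups did not overlap for either gene, with log2 fold changes of 7.96 ± 0.90 (SE, adjusted p = 0.000202, edgeR) and 7.60 ± 1.09 (adjusted p = 0.00147, edgeR). Cxcl1, Cxcl2 and Cxcl5 lie within 1 stretch of chromosome 5, from 90759298 to 90905938 (GRCm38.p6). Cxcl5 was uneven, at 40.8, 0, 90.8 and 103 CPM with LPS against 0.233, 0, 0 and 0 CPM with PBS. LPS replicate 2 had no Cxcl5 reads, so the groups overlapped at 0, and the call (adjusted p = 0.0368, edgeR) held in 1 of the 8 fits that left out a colon library.

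Ccl2 and Ccl7 encode attractants of monocytes through CCR2. Ccl2 stood at 4002, 3747, 5486 and 6396 CPM with LPS and at 0, 79.5, 4 and 35.4 CPM with PBS. Ccl7 stood at 597, 459, 1079 and 741 CPM against 0.7, 0, 9.67 and 16.3 CPM. Every LPS library was above every PBS library in both genes, with log2 fold changes of 7.37 ± 1.14 and 6.73 ± 0.90 (SE, adjusted p = 0.00261 and 0.000742, edgeR). Ccl3, a chemokine made by macrophages among other cells, rose from 0, 0, 1.33 and 2.07 CPM to 107, 191, 159 and 139 CPM. Ccl4, a close relative of Ccl3, rose from 0, 6.79, 1.33 and 4.37 CPM to 204, 340, 497 and 251 CPM. The annotated spans of Ccl3 and Ccl4 overlap on chromosome 11, and how reads in the overlap were counted is not given in the sources used here. Cxcl10, the interferon-inducible ligand of CXCR3, rose by 5.08 ± 0.77 on the log2 scale, with 294 to 1107 CPM against 5 to 52.3 CPM.

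The interleukin 1 genes were also near zero without LPS. Il1b stood at 79.8, 107, 91.6 and 78.7 CPM with LPS and at 0, 0, 0.667 and 0 CPM with PBS (adjusted p = 0.00178, edgeR). The 2 PBS counts of Il1b gave a ratio of 536 with a 95% Poisson interval of 148 to 4422, which covers counting error only. Both counts were in PBS replicate 3, and without it the log2 fold change of Il1b was 11.79 in place of 9.07. Il1a stood at 64.7, 128, 39.4 and 16.9 CPM against 1.63, 0, 0 and 0 CPM. Its log2 fold change of 7.04 rests on PBS replicate 1, without which all controls are at 0 and the fitted value is 11.25. Csf3, the granulocyte colony-stimulating factor, was not detected in any PBS or untreated colon library and reached 27.4, 443, 98.2 and 7.21 CPM with LPS. The 4 LPS libraries thus differed widely among themselves, the fold was at least 169 against the level of 3 counts per PBS library, and the call (adjusted p = 0.0293, edgeR) held in 3 of the 8 fits that left out a colon library. Csf1, the macrophage colony-stimulating factor, had a basal level and rose by 2.30 ± 0.48 on the log2 scale, from 15.4 to 64.3 CPM to between 121 and 278 CPM, and its call also held in 3 of these 8 fits. Tnf, a classical early target of LPS, did not pass the test. It stood at 0, 5.21, 1.64 and 0 CPM with LPS and at 0, 8.49, 0 and 0 CPM with PBS, and the highest value was in a PBS library.

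**Figure D1:**
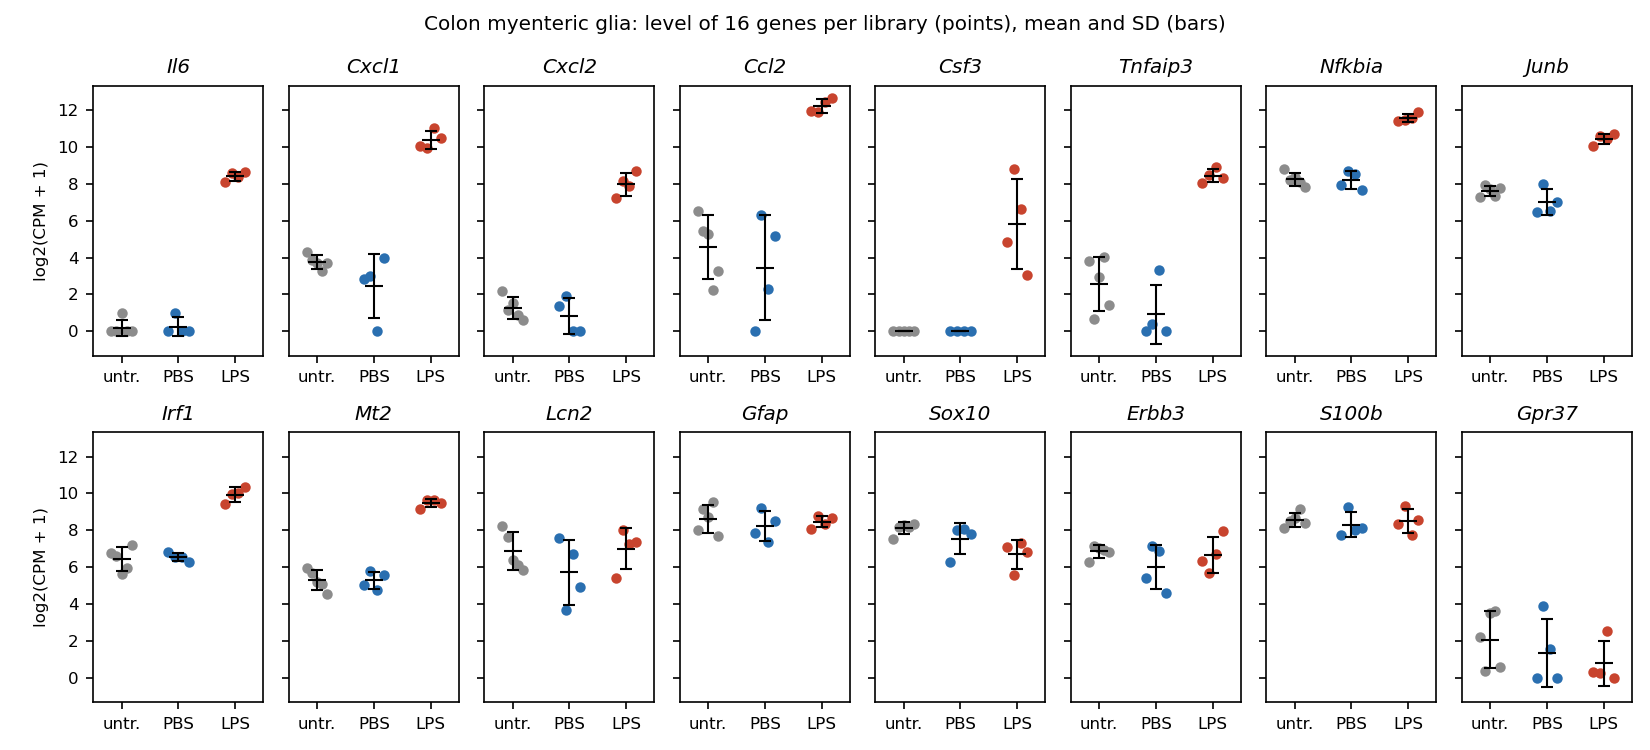
Level of 16 genes in the colon, as log2(CPM + 1), in 5 untreated, 4 PBS and 4 LPS libraries (points), with the mean and SD on that scale (black bars). Il6, Cxcl1, Cxcl2, Ccl2, Csf3, Tnfaip3, Nfkbia, Junb, Irf1 and Mt2 stand higher in all 4 LPS libraries than in any PBS library, while Lcn2, Gfap, Sox10, Erbb3, S100b and Gpr37 overlap between the groups.

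Of the genes with the largest changes, the 4 with the smallest adjusted p and a RefSeq promoter entry are shown with their promoters, as examples of the windows counted in the next paragraph. Each window runs 5′ to 3′ from 250 bases before the annotated start to 50 after it (RefSeq, GRCm38.p6), and capitals mark a match to the NF-kB consensus or to the AP-1 motif TGANTCA. Il6 lies on the plus strand (chr5:30012864-30013163), Cxcl2 on the plus strand (chr5:90903649-90903948), Ccl3 on the minus strand (chr11:83649329-83649628) and Gpr84 on the minus strand (chr15:103310389-103310688).
Il6: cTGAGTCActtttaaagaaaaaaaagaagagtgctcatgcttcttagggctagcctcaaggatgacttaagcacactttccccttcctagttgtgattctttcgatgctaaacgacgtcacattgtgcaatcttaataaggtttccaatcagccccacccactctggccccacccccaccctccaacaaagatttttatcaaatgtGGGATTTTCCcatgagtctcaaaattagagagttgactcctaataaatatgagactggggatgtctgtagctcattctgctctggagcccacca
Cxcl2: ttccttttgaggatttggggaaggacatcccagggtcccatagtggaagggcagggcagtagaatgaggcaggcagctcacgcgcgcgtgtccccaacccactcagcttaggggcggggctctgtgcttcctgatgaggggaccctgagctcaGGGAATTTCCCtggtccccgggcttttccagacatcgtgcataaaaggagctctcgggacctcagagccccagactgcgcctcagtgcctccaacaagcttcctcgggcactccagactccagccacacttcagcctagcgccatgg
Ccl3: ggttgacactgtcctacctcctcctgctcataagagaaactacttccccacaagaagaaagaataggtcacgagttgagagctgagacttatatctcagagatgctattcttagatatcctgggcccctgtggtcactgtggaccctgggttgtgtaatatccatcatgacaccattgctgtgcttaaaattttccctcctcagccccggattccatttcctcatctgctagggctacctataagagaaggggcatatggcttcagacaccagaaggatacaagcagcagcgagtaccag
Gpr84: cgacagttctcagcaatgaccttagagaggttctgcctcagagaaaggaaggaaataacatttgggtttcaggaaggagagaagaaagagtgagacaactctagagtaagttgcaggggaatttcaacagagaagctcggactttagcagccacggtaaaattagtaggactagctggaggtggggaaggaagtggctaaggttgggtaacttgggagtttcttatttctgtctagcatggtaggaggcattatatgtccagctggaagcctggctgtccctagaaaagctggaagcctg
The Il6 window held an NF-kB match that begins 44 bases before the start and an AP-1 match that begins 249 bases before it. The Cxcl2 window held 2 overlapping NF-kB matches, which begin 97 and 96 bases before the start. The windows of Ccl3 and Gpr84 held none of the motifs searched, which says only that these letters are not in those windows.

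Promoter entries were found for 72 of the 97 higher genes, with 103 windows. The NF-kB consensus, searched on both strands, was in 30 of the 103 windows (29.1%), beside 10.6% of the 13290 windows of tested genes and 8.46% of all 32851 windows. The AP-1 motif was in 14 of the 103 (13.6%), beside 5.4% of the windows of tested genes and 7.81% of all. The interferon-stimulated response element, a pair of GAAA repeats with 2 bases between them, was in 9 (8.74%), beside 3.23% and 3.44%. The 5 windows of the lower genes held none of the 3 motifs. These are counts of letters and not of bound sites.

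NF-kB inhibitors and cofactors moved with the secreted signals. Of 22 tested NF-kB subunits and feedback regulators 9 rose (Nfkbia, Birc3, Tnfaip3, Birc2, Bcl3, Nfkbiz, Tnip1, Relb and Tnip3) and none fell, with a median log2 fold change of 3.05 over the 22 genes (2.83 with the gene absent from all PBS libraries at its lower bound). Nfkbia encodes IkB-alpha, which holds NF-kB in the cytoplasm. It stood at 2731, 2830, 3060 and 3769 CPM with LPS and at 247, 418, 375 and 199 CPM with PBS, a log2 fold change of 3.32 ± 0.31 (SE, adjusted p = 2.25e-05, edgeR). Tnfaip3 encodes A20, a ubiquitin-editing enzyme that ends NF-kB signalling. It stood at 264, 362, 483 and 318 CPM with LPS and at 0, 0.34, 9 and 0 CPM with PBS. Its log2 fold change was 7.35 ± 1.07, and the LPS libraries lay far above the untreated range of 0.608 to 15.3 CPM. PBS replicate 3 held most of the control signal, and without it the log2 fold change of Tnfaip3 was 11.62.

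Birc3 and Birc2 encode the ubiquitin ligases cIAP2 and cIAP1 of the TNF receptor complex. Birc3 rose from 2.76 to 16.6 CPM to between 171 and 346 CPM, and Birc2 from 18 to 42.5 CPM to between 100 and 224 CPM. Neither gene's groups overlapped, and the log2 fold changes were 4.78 ± 0.48 and 2.25 ± 0.37 (adjusted p = 4.86e-05 and 0.00431, edgeR). Of the subunits, Relb and Nfkb1 are given here, chosen after their values were seen. Relb rose by 1.74 ± 0.35 on the log2 scale. The calls of Relb and Tnip3 held in 4 and that of Tnip1 in 3 of the 8 fits that left out a colon library. Nfkb1 stood at 51.7, 83.8, 95.7 and 11.6 CPM with LPS and at 11.4, 48.2, 18 and 41.8 CPM with PBS and did not pass the test.

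Immediate early genes are switched on without new protein synthesis. Of 27 tested, 9 rose (Junb, Ier3, Myc, Ier2, Zfp36, Egr1, Fosl2, Btg2 and Nr4a1), none fell, and the median log2 fold change was 1.73, beside 0.74% of all genes that rose. Junb, an AP-1 subunit, stood at 1048, 1551, 1360 and 1641 CPM with LPS and at 89.1, 254, 91.4 and 129 CPM with PBS (3.31 ± 0.40, adjusted p = 0.000301, edgeR). Myc, a transcription factor of growth, rose from 5.83, 0, 4 and 7.12 CPM to 92.1, 142, 152 and 136 CPM. Fos, the partner of Jun proteins in AP-1, stood at 719, 515, 776 and 598 CPM with LPS against 146, 827, 246 and 322 CPM with PBS, and its groups overlapped. Ier3 rose by 3.19 ± 0.42 and Ier2 by 1.67 ± 0.26 on the log2 scale. The call of Nr4a1 held in 6 of the 8 fits that left out a colon library, and the other 8 calls of this list held in all of them.

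Of 19 genes of the CEBP factors, MAP kinase phosphatases and mRNA decay 5 rose (Cebpd, Cebpb, Trib1, Zfp36 and Dusp1), with a median of 1.55 over the list. Cebpd, which takes part in late cytokine transcription, stood at 1656, 2424, 2374 and 1822 CPM with LPS and at 248, 421, 446 and 256 CPM with PBS (2.59 ± 0.30, adjusted p = 0.000233, edgeR). Zfp36 encodes tristetraprolin, which destabilises cytokine mRNAs. It stood at 1191, 1185, 1042 and 1163 CPM against 79.1, 313, 77 and 50.6 CPM. Its LPS libraries lay close together, and PBS replicate 2 was the highest control. Cebpb was uneven with LPS, at 50.6, 279, 91.2 and 35.5 CPM, against 4.37 to 22.1 CPM with PBS. Trib1 rose by 2.44 ± 0.33 on the log2 scale. The calls of Cebpb and Dusp1 held in 3 and 2 of the 8 fits that left out a colon library.

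The smallest adjusted p of all genes belonged to Mt2. The metallothioneins Mt1 and Mt2 bind zinc and copper and are induced by metals, glucocorticoids and cytokines. Mt2 stood at 571, 802, 798 and 713 CPM with LPS and at 32.4, 53.7, 26 and 47.3 CPM with PBS (4.18 ± 0.34, adjusted p = 1.09e-05, edgeR). Mt1 stood at 1366, 1934, 1953 and 2105 CPM against 135, 316, 131 and 265 CPM (3.12 ± 0.32, adjusted p = 4.86e-05, edgeR). In both genes the LPS libraries lay above all PBS and all untreated libraries. Both sat in a list of 20 tested glucocorticoid-induced genes, of which 3 rose, the third being the cell-cycle inhibitor Cdkn1a (1.24 ± 0.27), whose call held in 1 of the 8 fits that left out a colon library. The list's median was 0.18. Of the 20, DESeq2 called 4, and 8 had an unadjusted p under 0.05, beside 2.13% and 7.53% of all genes. Of the members that did not pass, 3 are given here, chosen after their values were seen: Tsc22d3 stood at 358 to 984 CPM with LPS and 539 to 1394 CPM with PBS, Fkbp5 at 1.56 to 166 and 11.9 to 82.5 CPM, and Per1 at 10 to 27.9 and 0.689 to 14.3 CPM.

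Of 13 tested genes of LPS sensing 2 rose (15.4%, beside 0.74% of all genes), Cd14 and Tlr2, and the median was 0.33. Cd14, the co-receptor that hands LPS to its receptor, stood at 121, 212, 283 and 164 CPM with LPS and at 4.43, 52.3, 15.3 and 22.3 CPM with PBS (3.05 ± 0.58, adjusted p = 0.0129, edgeR). Tlr2, the receptor for bacterial lipoproteins, stood at 268, 334, 333 and 245 CPM against 22.2, 72.4, 29.7 and 6.89 CPM (3.18 ± 0.58, adjusted p = 0.0112, edgeR). The call of Cd14 was lost without PBS replicate 3 or 4 and that of Tlr2 without PBS replicate 1 or 3. Tlr4 itself stood at 33.7, 77.4, 13.6 and 43.2 CPM with LPS and at 29.2, 1.7, 105 and 26.7 CPM with PBS. Its groups overlapped across their whole range, and its direction changed with the library left out. Gpr84, a receptor for medium-chain fatty acids in inflammatory cells, was at 0 in all 4 PBS libraries and at 20.1, 40.5, 50.1 and 31 CPM with LPS, a fold of at least 41.6 (adjusted p = 0.000629, edgeR). Against untreated colon, which held 0 to 1.74 CPM, its log2 fold change was 5.69 and the call was lost (adjusted p = 0.12, edgeR).

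Over the next 3 lists the background is again 0.74% of all genes called higher. Of 13 tested genes of the TNF family and TNF-induced proteins 3 rose: Tnfaip2 (3.81 ± 0.72), Tnfaip6, which binds hyaluronan (2.56 ± 0.52), and the death receptor Fas (1.66 ± 0.35). Their calls held in 6, 2 and 3 of the 8 fits that left out a colon library. Of 20 tested JAK-STAT genes 3 rose, the feedback inhibitors Socs2 (2.90 ± 0.44) and Socs3 (2.75 ± 0.56) and the kinase Pim1 (2.62 ± 0.55), beside a list median of 0.23. Socs3 stood at 417, 931, 778 and 702 CPM with LPS and at 32, 156, 133 and 101 CPM with PBS. The calls of Socs3 and Pim1 each held in 3 of the 8 fits. Against untreated colon the log2 fold change of Socs2 was 1.29 and its call was lost (adjusted p = 0.191, edgeR). Of 9 tested genes of leukocyte adhesion 1 rose, Icam1, the endothelial and glial ligand of leukocyte integrins. Icam1 stood at 648, 1119, 1657 and 1091 CPM against 35.2, 43.1, 40 and 17.5 CPM (5.06 ± 0.60, adjusted p = 0.000293, edgeR), with no overlap. Vcam1 stood at 295 to 422 CPM with LPS and at 122 to 450 CPM with PBS and did not pass.

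Among the interferon genes the transcription factor Irf1 had the smallest adjusted p. Irf1 stood at 684, 996, 1034 and 1321 CPM with LPS and at 111, 92.7, 94.7 and 77.9 CPM with PBS (3.42 ± 0.31, adjusted p = 2.19e-05, edgeR). Of 20 tested interferon-gamma-induced GTPases and Irf1, 3 rose, Irf1, Gbp5 and Irgm1. Gbp5 was uneven with LPS, at 5.57, 208, 84.6 and 88.7 CPM against 0 to 3.91 CPM with PBS, and LPS replicate 1 lay just above the controls. Of 27 tested genes induced by type I interferon 2 rose, DESeq2 called 4 and 7 had an unadjusted p under 0.05, beside 0.74%, 2.13% and 7.53% of all genes that rose, were called by DESeq2 and had such a p. Ifit1, which binds foreign RNA, stood at 155, 544, 864 and 742 CPM against 36.2, 144, 82.7 and 137 CPM (2.53 ± 0.54, adjusted p = 0.0313, edgeR), and the GTPase Ifi47 rose by 1.56 ± 0.29 on the log2 scale. When each colon library was left out in turn, the call of Ifi47 held in 6 of the 8 fits, those of Gbp5 and Irgm1 in 3 each, and that of Ifit1 in 1. The medians were 0.62 for the GTPase list and 0.60 for the type I list (0.57 with 1 gene at its lower bound). Ifi47, Irgm1 and the Gbp and Slfn genes have close paralogs, and how reads shared between copies were assigned is not given in the sources used here.

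**Figure D2:**
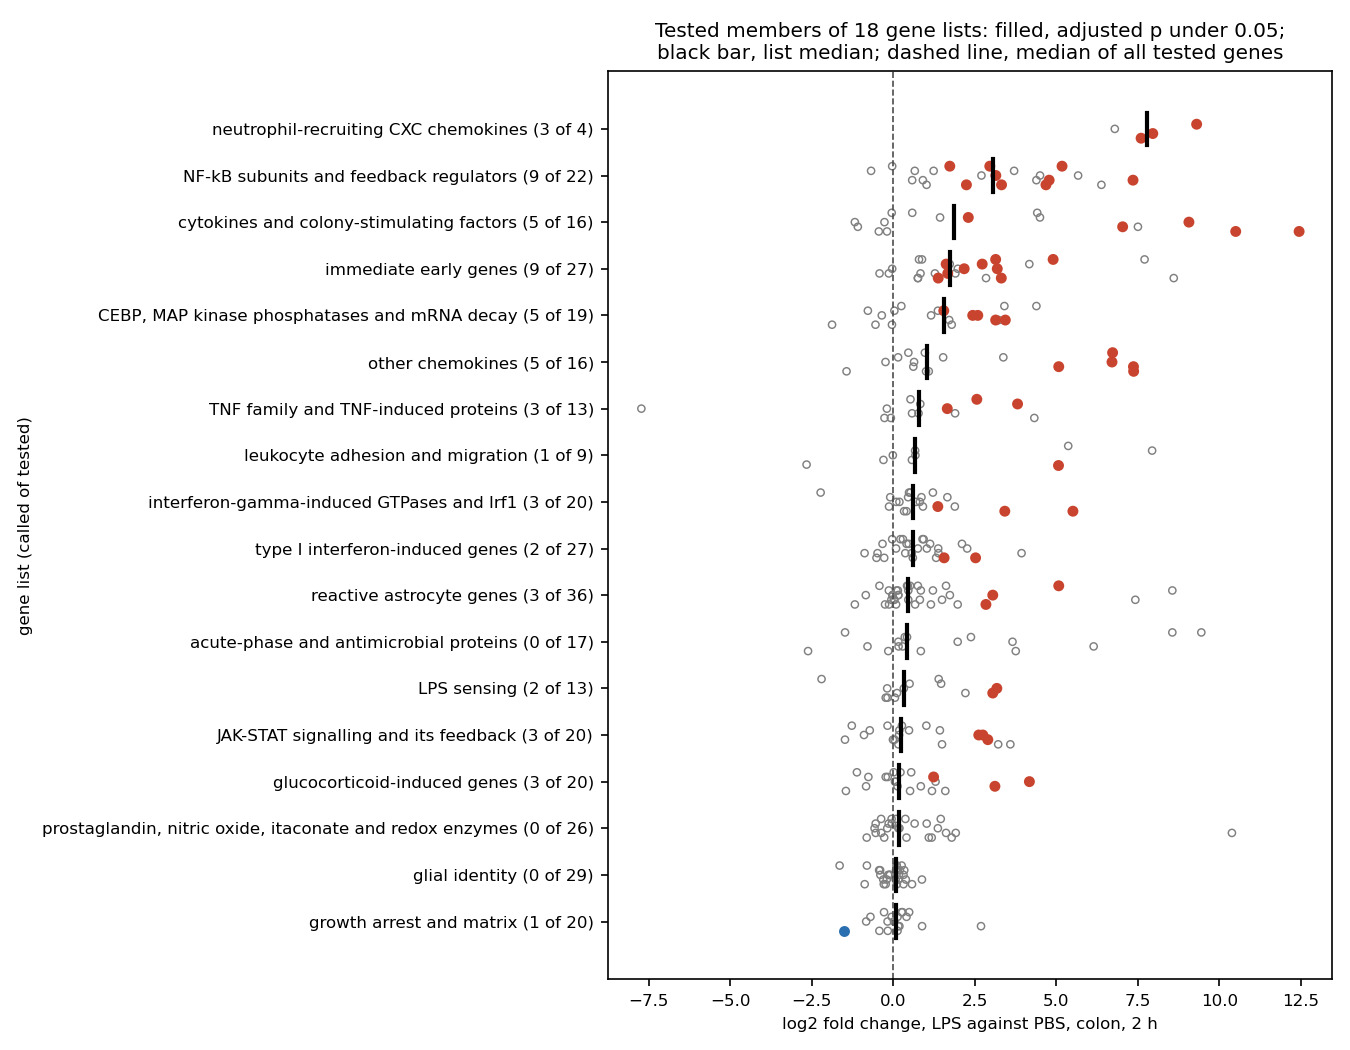
Log2 fold change of the tested members of 18 gene lists in the colon at 2 h (x axis), one list per line with the called and tested counts in brackets. Filled points passed the test and open points did not. The list medians fall from 7.78 for the neutrophil-recruiting chemokines to 0.09 for glial identity and for growth arrest and matrix, beside -0.0022 for all tested genes.

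Of 29 tested glial identity genes 0 were called by edgeR, 0 by DESeq2 and 0 at an unadjusted p under 0.05, and their median log2 fold change was 0.09. Over all genes edgeR called 0.778%, and 7.53% had an unadjusted p under 0.05, so 0 calls among 29 genes is near the background. Gfap, the intermediate filament used to read reactive glia, stood at 272, 437, 328 and 401 CPM with LPS and at 235, 599, 162 and 357 CPM with PBS (0.09 ± 0.33). The calcium-binding protein gene S100b stood at 326, 640, 216 and 371 CPM against 215, 618, 261 and 283 CPM. Sox10, the transcription factor of glial identity, stood at 134, 46.7, 158 and 114 CPM with LPS and at 77.7, 259, 272 and 222 CPM with PBS. PBS replicates 2 to 4 lay above all LPS libraries and PBS replicate 1 lay below 3 of them, with a log2 fold change of -0.87 ± 0.44 that did not pass. Gpr37, the receptor of the study's title, was at or near 0 in 5 of the 8 libraries and reached at most 4.93 CPM with LPS and 13.9 CPM with PBS.

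Of 36 tested genes known from reactive astrocytes of the brain, 3 rose (Cxcl10, Cd14 and Slc10a6), which is 8.33% beside 0.74% of all genes. Of the 36, DESeq2 called 5 and 11 had an unadjusted p under 0.05, beside 2.13% and 7.53% of all genes. The median was 0.45. Slc10a6, a transporter of sulphated steroids, stood at 112, 344, 393 and 511 CPM with LPS and at 40.1, 47.6, 54.7 and 47.1 CPM with PBS (2.84 ± 0.48, adjusted p = 0.00505, edgeR). Lcn2, the iron-sequestering protein lipocalin 2, stood at 41.5, 254, 152 and 162 CPM with LPS and at 191, 11.9, 106 and 29.2 CPM with PBS. Controls thus spanned nearly the same range as treated libraries, and the log2 fold change of 0.85 ± 0.82 did not pass. Steap4, a metalloreductase, stood at 234, 160, 629 and 426 CPM against 65.5, 35.7, 227 and 40.2 CPM and overlapped through PBS replicate 3 (1.98 ± 0.70, adjusted p = 0.421, edgeR). None of 17 tested acute-phase and antimicrobial genes was called by edgeR (4 at an unadjusted p under 0.05, 3 by DESeq2), with a median of 0.42. Over all genes 7.53% had such a p and DESeq2 called 2.13%. The acute-phase copper carrier Cp stood at 25.4 to 217 CPM with LPS and at 53.3 to 203 CPM with PBS. None of 26 tested prostaglandin, nitric oxide, itaconate and redox genes was called by edgeR either (3 at an unadjusted p under 0.05, 2 by DESeq2). The same shares of all genes stand beside these counts. Acod1, which makes itaconate, came closest: it was at 0 in all 4 PBS libraries and stood at 0, 16.2, 44.4 and 77.6 CPM with LPS (adjusted p = 0.0513, edgeR). Gpx1 and Sod1, antioxidant enzymes, differed by -0.05 ± 0.27 and 0.19 ± 0.17, and the apolipoprotein gene Apoe by -0.23 ± 0.27.

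Of the 102 genes called by edgeR 5 fell, beside 64 of the 279 called by DESeq2. Among them were Mfap3, which encodes a microfibril-associated protein, and Calhm2, a channel of the calcium homeostasis modulator family. Mfap3 stood at 40.1, 32.7, 46 and 35.5 CPM with LPS and at 102, 139, 93.4 and 104 CPM with PBS (-1.51 ± 0.27, adjusted p = 0.0105, edgeR). Calhm2 stood at 3.57, 5.81, 13.1 and 3.6 CPM against 50.8, 47.6, 44.7 and 23.7 CPM (-2.68 ± 0.57, adjusted p = 0.0313, edgeR). The call of Mfap3 held in all 8 fits that left out a colon library and that of Calhm2 in 2. The other 3 were chosen for mention after their values were seen. Fhit, which encodes a dinucleoside hydrolase, was at 0 in all 4 LPS libraries and at 4.66, 16.6, 6.67 and 5.06 CPM with PBS, at least 9.91-fold lower. Zfp882 stood at 0.277 to 0.446 CPM against 1.36 to 27.1 CPM. Fam84b stood at 0 to 0.277 CPM against 35.5, 13.2, 0 and 19.8 CPM, and its groups overlapped through PBS replicate 3. The calls of Zfp882 and Fam84b held in 1 and 2 of the 8 fits. With the 8 colon libraries alone 0 lower genes were called, and without LPS replicate 3 there were 17.

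The small intestine of the same experiment, with 4 LPS and 4 PBS libraries, gave a test of whether the colon response differed by region. The labels do not say whether libraries of the 2 regions came from the same mice, so the regions may not be independent. At 2 h 144 genes (1.1%) were called there. Of the 102 colon genes 84 were also called in the small intestine, all in the same direction, which is 82.4% of the colon calls and 58.3% of the small-intestinal calls. No gene passed the test of the difference between the regions (edgeR, adjusted over all genes). At an unadjusted p under 0.05 there were 452 genes (3.45%), and DESeq2 called 44. Of the 97 genes higher in the colon, 64 had a smaller log2 fold change there than in the small intestine and 33 a larger one. Il6 was among the latter, with 10.50 ± 0.91 beside a small-intestinal value of 6.66 (unadjusted p = 0.003 for the difference). All colon PBS counts of Il6 were in replicate 2, and without that library the colon value was 13.75. Lcn2 differed the other way, with 0.85 in the colon beside a called value of 4.97 in the small intestine (unadjusted p = 0.0049 for the difference). After adjustment over all genes neither difference passed.

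The 18 colon genes that were not called in the small intestine were also set against the 5 untreated colon libraries in place of the PBS group. Mitochondrial genes took 5.35% to 16.5% of the counts in those 5 libraries, beside 1.76% to 8.04% with PBS and 2.88% to 8.17% with LPS. Glial markers summed to 6907 to 14157 CPM in untreated colon, 3480 to 9839 CPM with PBS and 3833 to 9527 CPM with LPS. Smooth muscle markers summed to 7125 to 22940 CPM in untreated colon and 19382 to 72124 CPM with PBS. Fibroblast markers summed to 3524 to 14277 and 4288 to 10519 CPM. The part of these differences in the values below was not tested. Against untreated colon edgeR called 64 of the other 84 genes in the same direction and 0 of the 18, of which 11 had an unadjusted p under 0.05. Among the other 84, the named genes that lost their call were Gpr84, Cxcl5, Gbp5, Socs2, Ier2, Pim1, Cebpb, Ifi47 and Irgm1. The log2 fold change of Cxcl5 became 5.80 in place of 9.31, that of Gbp5 3.11 in place of 5.51, and that of Ier2 0.92 in place of 1.67. The fold changes of the 2 controls share the LPS libraries and were not tested against each other. All 5 lower genes and 13 higher genes were among the 18. The untreated libraries overlapped the LPS libraries in 9 of the 18 and the PBS libraries in 11.

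Slfn8, of the Schlafen family, stood at 22.1, 59.1, 50.5 and 67.9 CPM with LPS, at 0, 0, 2.67 and 0.23 CPM with PBS, and at 3.11 to 37.6 CPM in untreated colon. The PBS libraries were thus the low ones. In Zfp429 the PBS libraries were also the low ones, with 11.8 to 17.2 CPM with LPS, 0 to 0.679 CPM with PBS and 3.11 to 18.6 CPM in untreated colon. The call of Zfp429 (adjusted p = 0.0432, edgeR) held in 0 of the 8 fits with a colon library left out. Mfap3, lower with LPS than with PBS, lay at 28.6 to 89.6 CPM in untreated colon, a range that held the LPS libraries and none of the PBS libraries. Other genes of the 18 went the other way. Untreated colon held 18.5 to 42.2 CPM of Calhm2 and 19.9 to 79.4 CPM of Birc2, ranges that overlapped the PBS libraries and none of the LPS libraries. The untreated mice were not injected and belong to another set of the study, so injection, set and cell content cannot be told apart.

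Dpp6, Trpc4 and P2rx2, also among the 18, encode membrane proteins of excitable cells and varied widely between LPS libraries. Dpp6, a subunit of voltage-gated potassium channels, stood at 41, 0.802, 28.3 and 0.554 CPM with LPS and at 0 to 0.466 CPM with PBS. Trpc4, a cation channel, stood at 48.4, 20, 11.5 and 1.94 CPM against 0 to 0.34 CPM. P2rx2, an ATP-gated channel named here after its values were seen, stood at 18.7, 0.2, 7.8 and 1.39 CPM against 0 to 0.34 CPM. The high libraries of Dpp6 and P2rx2 were LPS replicates 1 and 3. The same 2 libraries had the highest summed level of 12 neuronal markers in the LPS group, 2358, 330, 709 and 364 CPM in replicates 1 to 4, against 515, 865, 162 and 464 CPM with PBS. The part of neuronal RNA in these 3 results was not tested. Their calls held in 2, 1 and 2 of the 8 fits that left out a colon library.

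**Figure D3:**
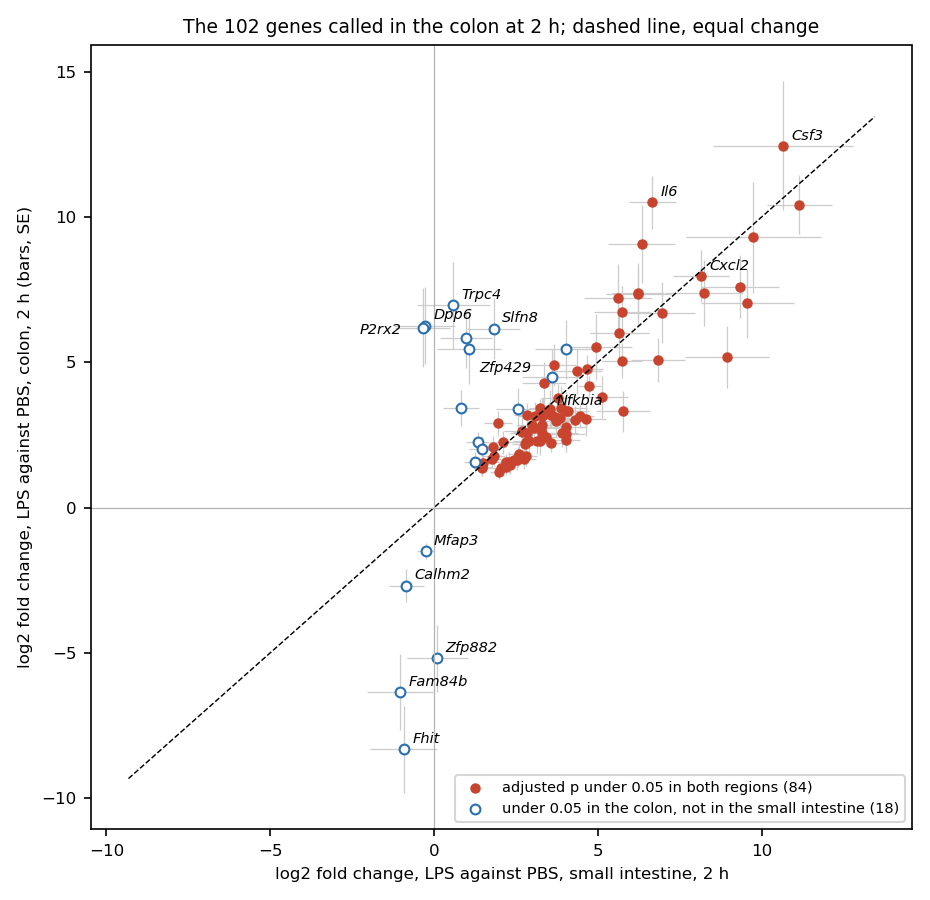
Log2 fold change with LPS at 2 h in the small intestine (x axis) and in the colon (y axis) of the 102 genes called in the colon, with SE bars. Filled points are the 84 genes called in both regions, each with the same sign in both. Il6 lies above the line of equal change (10.50 in the colon, 6.66 in small intestine), a difference that did not pass after adjustment over all genes. Open points are the 18 not called in the small intestine, among them all 5 lower genes and Dpp6, P2rx2, Trpc4, Slfn8 and Zfp429.

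Markers of other cell types were measured beside these changes. Of 71 tested marker genes in 11 lists edgeR called 0 (4 at an unadjusted p under 0.05, 1 by DESeq2). Over all genes edgeR called 0.778%, 7.53% had an unadjusted p under 0.05, and DESeq2 called 2.13%. The smallest p of an exact two-sided permutation test of the summed levels was 0.543 (adjusted p = 1 over the 11 lists). With 4 against 4 libraries the smallest p possible is 0.0286, so a single list could not pass after adjustment over 11 and this test says little about whether the levels differed. Macrophage markers summed to 454, 957, 1036 and 394 CPM with LPS and to 430, 3083, 690 and 924 CPM with PBS. Of the 10 macrophage markers 9 had a negative log2 fold change and none passed (median -0.93). Of the 12 neuronal markers 11 had a positive one and none passed by edgeR (median 0.84), and the 1 marker called by DESeq2 was neuronal. Cx3cr1, the fractalkine receptor of resident macrophages, stood at 0.223, 0.802, 7.8 and 27.4 CPM against 38, 127, 46.7 and 43.9 CPM without overlap (-2.82 ± 1.24, adjusted p = 0.599, edgeR). Neutrophil markers summed to 0 to 8.25 CPM with LPS and 0.919 to 7.67 CPM with PBS, and Ngp, Retnlg and Cxcr2 were at 0 in all 8 libraries. The genes of cytokines and chemokines that rose are also expressed by macrophages, fibroblasts, endothelium and smooth muscle, and which cells of the preparation held these transcripts was not tested.

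**Figure D4:**
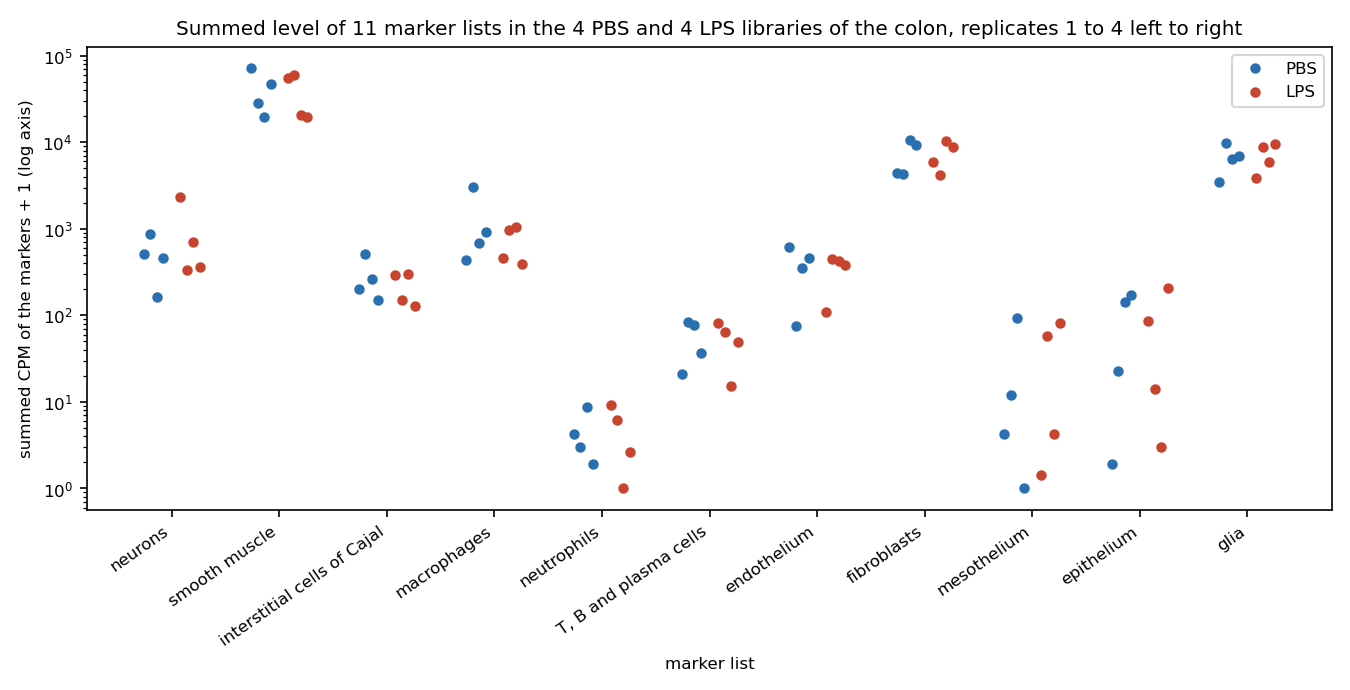
Summed CPM (plus 1, log axis) of 11 marker lists in the 4 PBS and 4 LPS libraries of the colon, replicates 1 to 4 from left to right within each colour. PBS and LPS libraries overlap in every list. Neuronal markers are highest in LPS replicate 1 (2358 CPM) and neutrophil markers stay under 9 CPM in all libraries.

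The size of the response was compared between the LPS libraries. Over the 97 higher genes the median of log2(CPM + 1) above the mean of the PBS libraries was 2.66, 3.04, 3.28 and 3.06 in LPS replicates 1 to 4. Replicate 1 was the lowest of the 4 for 57 of the 97 genes. It also had the lowest glial sum of the LPS group (3833 CPM) and the highest neuronal sum, and the part of either in its level was not tested. No gene passed the test of a difference between females and males in the response (860 genes, 6.56%, at an unadjusted p under 0.05). DESeq2 called 161 such genes, and edgeR 208 without the filter on low counts. Of the 102 called genes, 8 had an unadjusted p under 0.05 for this difference.

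At 24 h the colon of mice wild-type for Gpr37 was compared in other animals and another count table, with 5 LPS and 4 PBS libraries. Only fold changes and counts of calls are therefore set side by side, and the difference between the times was not tested. There 1186 of 14903 genes (7.96%) were called, 590 higher (3.96%) and 596 lower (4%). The count was 2255 by DESeq2, and 727, 551, 615 and 722 without PBS replicate 1, 2, 3 or 4, so the counts of members at 24 h rest on these libraries. Of the 102 genes called at 2 h, 43 were called at 24 h, all of them higher at both times, which is 42.2% of the 2 h calls and 3.63% of the 24 h calls. The median log2 fold change of the 97 higher genes was 3.14 at 2 h and 1.49 at 24 h. These genes were chosen by their change at 2 h, which favours large values at 2 h, so the 2 medians are not on equal terms. In this experiment 3 of the 5 LPS mice and 0 of the 4 PBS mice had a number of 10 or below. With only mice numbered 11 and above, 38 of the 43 were called.

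The list counts at the 2 times are set side by side. Of the immediate early genes 9 of 27 rose at 2 h and 2 of 27 at 24 h. Junb, Egr1 and Myc had log2 fold changes of 0.67, 0.69 and 0.93 at 24 h. Of the cytokines 5 of 16 rose at 2 h and 2 of 14 at 24 h, and Il6, Il1b and Csf3 were not called at 24 h (2.64, 1.46 and 4.06). The neutrophil-recruiting chemokines Cxcl1, Cxcl2 and Cxcl5 rose at both times, with 4.94, 6.13 and 6.83 at 24 h. Ccl3 and Ccl4 had 1.00 and -1.19 at 24 h and were not called there.

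Calls were more frequent at the later time over all genes too, with 0.74% higher and 0.0381% lower at 2 h and 3.96% higher and 4% lower at 24 h. Of the type I interferon-induced genes 2 of 27 rose at 2 h and 13 of 27 at 24 h. Of the acute-phase and antimicrobial genes 0 of 17 rose at 2 h and 8 of 17 at 24 h, and of the reactive astrocyte genes 3 of 36 and 13 of 36, while 3 others of that list fell at 24 h. The NF-kB regulators rose in 9 of 22 and 14 of 22. Lcn2 had a log2 fold change of 3.88 at 24 h (adjusted p = 0.02, edgeR), and the protease inhibitor gene Serpina3n, outside the rule for named genes, had 0.42 at 2 h and 3.61 at 24 h. Mt1 and Mt2 were called at both times and had 4.02 and 4.80 at 24 h. Of the growth arrest and matrix genes 1 of 20 fell at 2 h and 10 of 20 at 24 h. At 24 h 3 of 6 fibroblast markers also fell, the collagen genes Col1a1, Col1a2 and Col3a1, which are in the matrix list as well, and so did 3 of 29 glial identity genes. The part of fibroblast RNA in the fall of the matrix list was not tested.

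**Figure D5:**
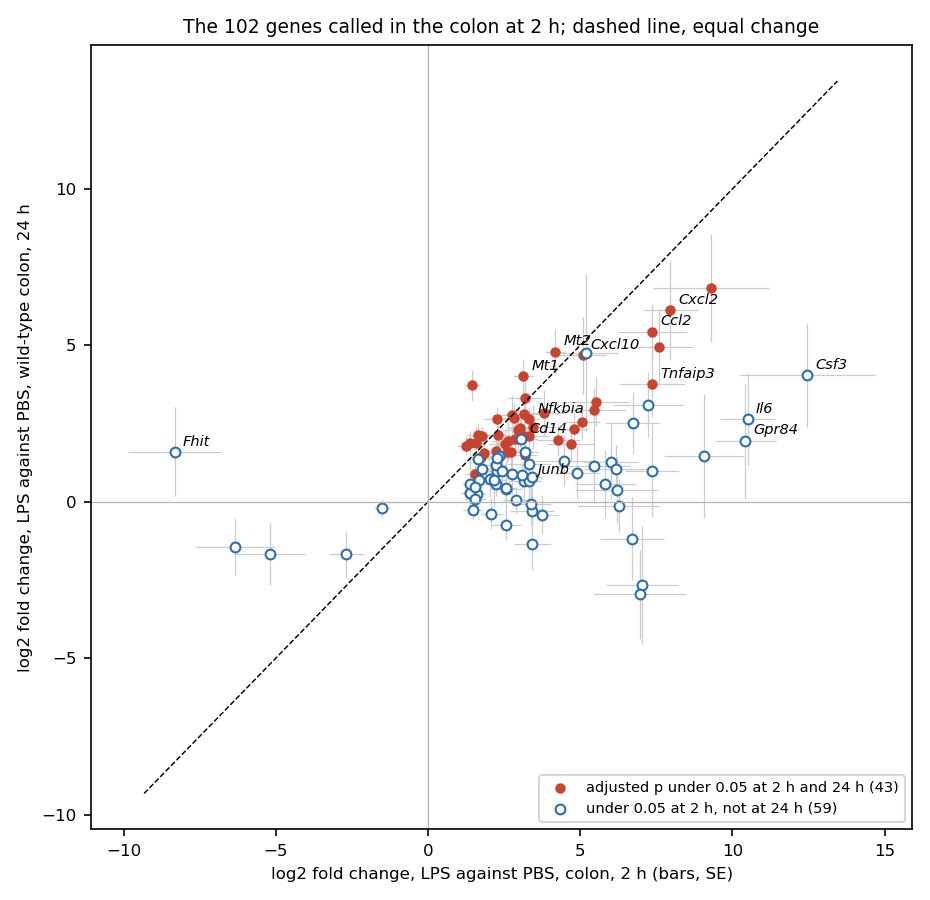
Log2 fold change with LPS in the colon at 2 h (x axis) and in wild-type colon at 24 h (y axis) of the 102 genes called at 2 h, with SE bars. Filled points are the 43 genes called at both times and open points the 59 called at 2 h and not at 24 h. Most points lie below the dashed line of equal change, and Mt1 and Mt2 lie above it. The choice of genes by their change at 2 h favours points below the line.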

How the data were processed

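Gene expression was measured by RNA-seq from Smart-seq2 libraries, per the labels' protocols, which amplify full-length cDNA by PCR and carry no molecular identifiers. The authors deposited raw read counts per gene symbol, with no normalization. The submitters' processing notes name Trim Galore 0.4.4, STAR 2.5.3, DESeq2 and the build GRCm38; the counter, annotation and use of strand are not given in the sources used here.

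Genes were filtered with filterByExpr and scaled by TMM, and edgeR 4.0.16 (R 4.3.3) fitted the 16 libraries of the 2 h experiment in 4 groups, which share 1 estimate of the spread. Quasi-likelihood tests were two-sided, with Benjamini-Hochberg adjustment over all 13107 genes and a threshold of 0.05. The SE is the log2 fold change divided by the square root of F. The 24 h table was fitted alone. Untreated colon CPM were scaled within the 13 myenteric colon libraries of the same table. Lower bounds on a fold use the CPM of 3 counts per library, averaged over the group. Named genes, leaving out predicted genes, were the 20 higher and up to 10 lower called genes of largest change with a mean log2 CPM of 3 or more and no overlap, up to 4 called members of each list (or the 2 most abundant where none was called), and a panel of glial and LPS genes. Nfkb1, Relb, Fos, Egr1, Vcam1, Tsc22d3, Fkbp5, Per1, Acod1, Cx3cr1, Col1a1, Col1a2 and Col3a1 lie outside this rule and were chosen after their values were seen. Some genes that the rule named are not reported here. The members and the lists were chosen with earlier results of these data known. Alternatives were RLE factors, DESeq2 1.42.0, no filter, a sex covariate, a replicate block, colon libraries alone, untreated colon as the control, and each library left out. RefSeq symbols (GRCm38.p6) matched 100 of the 102 called genes, and promoter entries 76. Akap2 and Pakap, both called, held nearly the same counts and are uncertain. Every column of per-sample values was mapped to a sample.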

Additional observations from a re-analysis of the deposited data

Results flagged for a closer look

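In 13 of 156 groups of 4 libraries tested, 1 library stood apart from the other 3 by Dixon's criterion, which chance meets in about 1 group in 20. In 6 of the 13 the other 3 libraries were at 0, so that any single non-zero value met the criterion and that chance rate does not apply. Of these, 11 were PBS groups in which a single control library was higher or lower than the rest for a named gene. High controls were PBS replicate 2 for Il6 (1.02 CPM) and Tnf (8.49 CPM), replicate 3 for Il1b (0.667 CPM), Tnfaip3 (9.00 CPM) and Slfn8 (2.67 CPM), and replicate 1 for Rnd1 (7.7 CPM), Il1a (1.63 CPM) and Cxcl5 (0.233 CPM). Low controls were PBS replicate 1 for Tnfaip6 (33.1 CPM) and Sox10 (77.7 CPM) and replicate 4 for Calhm2 (23.7 CPM). In the LPS group Gpr37 was high in replicate 3 (4.93 CPM), and the summed endothelial markers were low in replicate 1 (109 CPM). Except for Tnf, Sox10 and Gpr37, which did not pass the test, and the marker sum, each of these genes was called in the comparison of LPS with PBS.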

How the results depend on the processing

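The 102 calls of the colon at 2 h became 279 with DESeq2, 63 with the colon libraries alone and 41 with the colon libraries alone and the replicate block; leaving out 1 colon library gave 65 to 108 (66 without PBS replicate 1, 65 without PBS replicate 3) and leaving out 1 small-intestinal library 91 to 104. RLE factors (102), no filter (100), the sex covariate (93), and untreated colon as the control (79) stayed within 1.5 times. With the replicate block 88 genes were called, 82 of them among the 102. Same-numbered LPS and PBS libraries correlated by 0.0229 to 0.0808 in their deviations (mean 0.055, against -0.018 for other pairs). Same-numbered libraries of the 2 regions correlated by 0.0099 to 0.168 with PBS (mean 0.092) and by -0.051 to 0.155 with LPS (mean 0.062), against -0.030 and -0.020 for other pairs. Replicates 1 and 3 were female and 2 and 4 male in each group, so same-numbered libraries also share their sex. Not every pair was above 0.1, a limit set by choice, so the numbers were not taken to pair the libraries. The labels do not say whether same-numbered libraries share a mouse or a batch. The region difference had 0 calls in every edgeR fit run and 44 with DESeq2; the sex difference had 0, then 161 with DESeq2 and 208 without the filter. The 24 h count of 1186 was 2255 with DESeq2 and 551 to 1324 without 1 library (727, 551, 615 and 722 without PBS 1 to 4). The causes were not tested.

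Log2 fold changes that reversed sign belonged, among the genes reported here, to genes that were not called. Against untreated colon Cp gave -0.53, Gpx1 0.23, Apoe 0.022, Gfap -0.29 and S100b -0.021. Cp gave -0.070 with the colon libraries alone and the replicate block, and Tnf gave 0.55 with the replicate block and 0.54 with the sex covariate. Leaving out 1 colon library moved Cp between -0.19 and 0.54, Gpx1 between -0.21 and 0.12, Apoe between -0.37 and 0.15, Gfap between -0.14 and 0.52, S100b between -0.18 and 0.62, Gpr37 between -4.51 and 0.98, Tlr4 between -0.42 and 1.13, and Tnf between -2.03 and 6.13. At 2368306 to 5724367 counts per library, a gene at 0 in all libraries of 1 group gives a lower bound only, as 2 of the 97 higher genes and 1 of the 5 lower genes did.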

Other observations

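Among the 97 higher genes, 44 were in none of the lists. The genes in the next sentences were chosen for mention after their values were seen. Rcan1, an inhibitor of calcineurin, stood at 285, 674, 726 and 717 CPM with LPS and at 117, 82.9, 132 and 77.2 CPM with PBS, and Pde4b, which degrades cyclic AMP, at 464, 758, 1003 and 691 CPM against 84.4, 81.2, 31 and 130 CPM. Rgs16, which shortens G protein signals, stood at 130, 265, 225 and 430 CPM against 0, 0, 13.7 and 10.3 CPM. Gem, a small GTPase that restrains calcium channels, rose by 3.76 ± 0.50 on the log2 scale at 2 h and had -0.42 at 24 h.

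Pfkfb3, which makes the activator of glycolytic phosphofructokinase, stood at 135, 321, 391 and 179 CPM with LPS and at 6.06, 0.34, 22.7 and 23.2 CPM with PBS. Sphk1, which makes sphingosine 1-phosphate, rose by 2.82 ± 0.37, and the growth arrest genes Gadd45b and Gadd45g by 3.02 ± 0.46 and 3.40 ± 0.63 on the log2 scale. Adamts4, a protease of proteoglycans and one of the genes the rule named, stood at 209, 272, 262 and 163 CPM with LPS and at 3.03, 0, 3 and 7.58 CPM with PBS (6.01 ± 0.91, adjusted p = 0.0022, edgeR). Rnd1, a small GTPase, stood at 122, 475, 404 and 256 CPM against 7.7, 0, 0 and 0 CPM (7.22 ± 1.15, adjusted p = 0.00341, edgeR). Without PBS replicate 1 all controls of Rnd1 were at 0 and the fitted value was 13.58. The call of Gadd45g held in 5 of the 8 fits that left out a colon library. Sdc4, a heparan sulphate proteoglycan, had the widest gain between the times among the genes called at both, with 1.45 at 2 h and 3.73 at 24 h.

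Ccl2 had 1 of the wider gaps between the sexes among the called genes, with log2 fold changes of 11.33 in females and 6.47 in males (unadjusted p = 0.0032 for the difference, edgeR). The gap lay in the controls, where the 2 female libraries held 0 and 4 CPM and the 2 male libraries 79.5 and 35.4 CPM. Over all genes the smallest adjusted p for a sex difference was 0.162.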
